A study of Mus musculus with 24 samples.

Results

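The mouse hairpins mir-6896 to mir-7094 are 202 of the 1186 rows (17.03%) of a deposited table of microRNA hairpin counts. They were chosen by number alone, with every letter or arm suffix kept, and all 199 numbers of that range were present. The rows of the same numbers in the companion table of mature microRNAs, 403 of 1915 (21.04%), of which 202 were 5p arms and 201 were 3p arms, served as a check. The study sequenced small RNA from 4 materials: exosomes of mouse serum, exosomes of the culture medium of primary mouse hepatocytes, those cultured hepatocytes, and liver. Exosomes are small vesicles that cells release. Each material came as an untreated control, with acetaminophen, a painkiller that injures the liver at overdose, and with acetaminophen plus granulocyte colony-stimulating factor (G-CSF), a cytokine that mobilises blood cells. Acetaminophen was given at 500 mg/kg and G-CSF at 100 µg/kg for the serum and liver samples, and at 20 mM and 1 µg/ml for the cultures and the exosomes of their medium. The labels name neither a strain, an age, a number of mice or cultures, nor a length of treatment.

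The 24 libraries had been combined before deposition into 12 columns, 1 per condition, so no column has a replicate, and p-values below take treatments as the replicates of a material or materials as those of a treatment. For both treated serum columns the sample titles and the treatment label give opposite assignments of G-CSF, and the label is followed here. Total hairpin counts were 838624, 179751 and 139361 in hepatocytes (control, acetaminophen, acetaminophen plus G-CSF, the order used throughout), 1307523, 111316 and 1095868 in liver, 181243, 460 and 4026 in serum exosomes, and 911, 167 and 173 in hepatocyte exosomes. The hepatocyte microRNA mir-122 made up 5.0%, 5.16% and 3.1% of counts in hepatocytes and 9.56%, 15.6% and 5.69% in liver. In hepatocyte exosomes it held 2 counts, 0 and 0.5, so the label of those 3 columns has little support in its defining marker.

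A mirtron is a microRNA hairpin released from an intron by splicing, without the nuclear cut by Drosha that other hairpins need. In a plain mirtron the hairpin is the whole intron. In a tailed mirtron the hairpin touches 1 splice site and the rest of the intron is a tail that is trimmed before Dicer cuts the hairpin. A 3′ arm of a mirtron that ends at the splice acceptor carries the acceptor's pyrimidine-rich run and its closing AG.

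The sequences below were taken from RefSeq (GRCm38.p6), which held 180 of the 202 hairpins. They are the hairpins with the most counts in hepatocytes or liver for which a sequence was at hand. They are written 5′ to 3′, and the capitals mark the closing AG of the intron.
mir-6949: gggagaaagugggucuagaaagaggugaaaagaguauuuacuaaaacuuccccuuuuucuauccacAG
mir-7058: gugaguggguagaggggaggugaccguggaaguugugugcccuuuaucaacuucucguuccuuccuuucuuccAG
mir-6937: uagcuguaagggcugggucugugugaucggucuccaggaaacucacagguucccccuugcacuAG
mir-6897: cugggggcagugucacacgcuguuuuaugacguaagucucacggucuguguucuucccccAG
mir-7033: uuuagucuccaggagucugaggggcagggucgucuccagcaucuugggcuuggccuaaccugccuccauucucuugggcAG

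mir-6949 lies at chr14:56082401-56082468 on the minus strand, in a 479-base intron of Mcpt8, a protease gene of basophils. Its 3′ end is the last base of that intron, and 411 bases of intron precede it. mir-7058, at chr7:126367971-126368045 on the minus strand, is a whole 75-base intron of Lat, which codes for an adaptor protein of T-cell receptor signalling. It also overlaps an exon of another Lat transcript, and it shares a run of 20 bases with a spliced transcript of Tulp1. mir-6937, at chr12:28679325-28679389 on the plus strand, closes a 1492-base intron of Adi1, an enzyme gene of methionine salvage. mir-6897, at chr1:36144252-36144313 on the minus strand, closes a 1780-base intron of Uggt1, whose product checks the folding of glycoproteins in the endoplasmic reticulum. mir-7033, at chr5:135383730-135383810 on the minus strand, closes a 109-base intron of Pom121, a nuclear pore gene. These coordinates and gene models are those of GRCm38 and GENCODE M21; the authors' build is not named in the sources used here, and no host transcript was measured.

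The name mirtron-type fits most of the hairpins by position. Of the 180 with a sequence, 171 lay inside an intron on the same strand and 167 (92.8%) ended exactly at a splice acceptor, against 17 of the 764 other hairpins with a sequence (2.23%). The last 2 bases were AG in 167, against 65 of 764 others (8.51%). A 5′ end exactly at a splice donor was found in 15, and 11 were whole introns, so the usual form was a hairpin at the acceptor with a stretch of intron before it. No intron was found for 7. The median hairpin was 66 bases long against 83 for the others, and the median host intron 479 bases against 6065. A run of 20 bases shared with a spliced transcript of another gene was found in 10 of the 180 (5.56%) and in 278 of the 764 others (36.4%), and 37 overlapped an exon on their own strand. These are descriptions of the annotation and rest on no count.

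**Figure D1:**
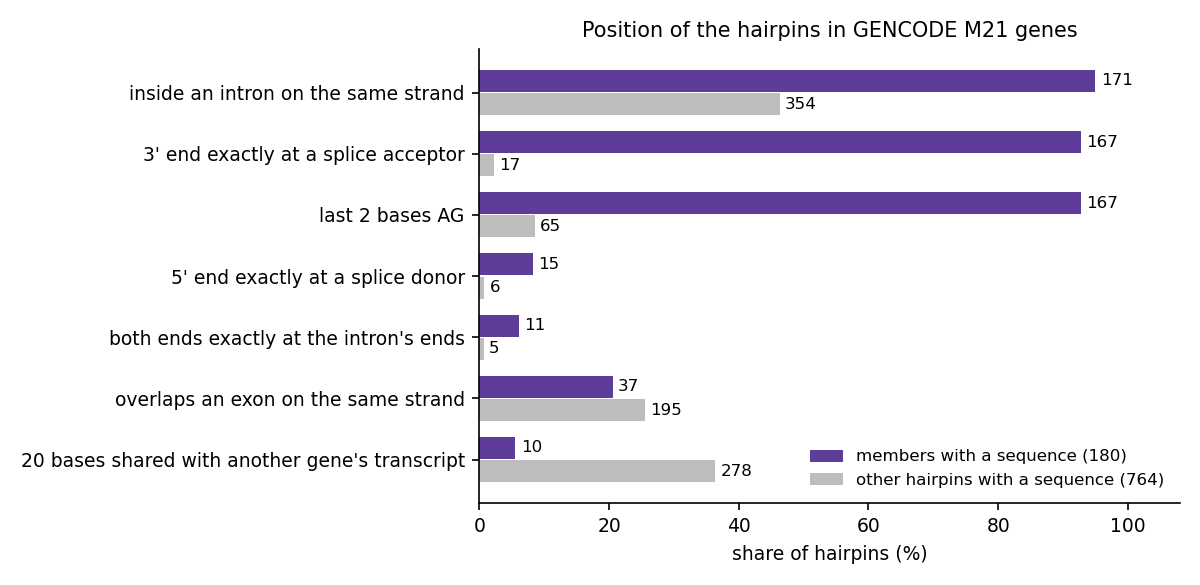
Share of hairpins (%, horizontal axis from 0) with each feature of position, for the 180 mirtron-type hairpins with a RefSeq sequence (purple) and the 764 other hairpins with one (grey), with the number of hairpins beside each bar. A 3′ end at a splice acceptor was found in 167 against 17, while ends at a splice donor were few in both sets.

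The arms followed the same layout. The 178 5p arms with a sequence were 44.2% G, against 29.0% in the 491 other 5p arms, and the 177 3p arms were 71.8% C or U, against 53.7% in 505. The last 2 bases were AG in 138 of the 177 3p arms (78.0%) and in 56 of the 505 others (11.1%). The seed of a microRNA, bases 2 to 8 from its 5′ end, is the part that pairs with most targets. Among the 355 arms there were 326 distinct seeds, of which 301 belonged to 1 arm, 21 to a pair and 4 to 3 arms, so the hairpins share a position in their genes much more than a seed. The first set below shows arms of the hairpins above that were counted or that make up mir-6949, and the second the 3 arms of a shared seed, with the seed in capitals.
miR-6949-5p: aAAGUGGGucuagaaagagguga
miR-6949-3p: uUCCCCUUuuucuauccacag
miR-7058-3p: cUCGUUCCuuccuuucuuccag
miR-6937-5p: uAGCUGUAagggcugggucugugu
miR-6897-5p: uGGGGGCAgugucacacgcuguu
miR-7033-5p: uCUCCAGGagucugaggggcagg
miR-7018-3p: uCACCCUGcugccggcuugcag
miR-7023-3p: uCACCCUGucugcgccccucag
miR-7068-3p: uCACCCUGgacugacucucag

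Most of the hairpins were rare. Counts above 0 in at least 1 column were found for 199, and mir-6940, mir-7019 and mir-7055 stood at 0 throughout. The median total over the 12 columns was 6.75 counts, 129 had under 10 in all, and 33 had at least 10 in some column. None was above 0 in all 12 columns, and mir-6981 was in 11. Counts appeared in exosome columns alone for 24, in hepatocyte or liver columns alone for 29 and in both for 146. The columns differ widely in depth and the same split is not given for the other hairpins, so it describes no trait of this set. A single hairpin, mir-6949, held 2314.3 of the 4741.4 counts (48.8%), and it alone reached 100 counts in a column.

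The summed share of the 202 hairpins was highest in the exosome columns with few counts, and among the deeper columns in drug-treated hepatocytes. In hepatocytes it was 0.03405% (95% Wilson interval 0.03037 to 0.03829), 0.815% (0.7745 to 0.8576) and 0.9337% (0.8844 to 0.9854). In liver it was 0.05766% (0.0537 to 0.06193), 0.06025% (0.0474 to 0.07642) and 0.0327% (0.02946 to 0.03623). Both drug-treated hepatocyte columns thus stood above all 3 liver columns, and the hepatocyte control did not. In serum exosomes the share was 0.02119% (0.01528 to 0.02877) in the deep control column, and 7.26% (5.154 to 9.904) and 8.302% (7.483 to 9.188) in the shallow treated columns. In hepatocyte exosomes it was 9.415% (7.708 to 11.51), 9.262% (5.984 to 15.0) and 1.735% (0.5915 to 4.974). Wilson intervals cover counting error only, since reads without molecular identifiers are not independent molecules.

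The 5 shallow exosome columns, with 167 to 4026 counts, also differed from the other 7 in the rest of the table. In them, other hairpins numbered 1000 or above, 38.36% of all rows, took 55.06% to 70.61% of counts, and hairpins below 1000, 44.6% of rows, took 20.13% to 35.6%. In the other 7 columns the hairpins below 1000 took 75.51% to 95.84%. The shares of the 202 hairpins in those 5 columns, 1.735% to 9.415%, lay closer to their 17.03% of rows than in any other column. Depth, material and treatment move together here, and their parts in the serum difference cannot be told apart.

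**Figure D2:**
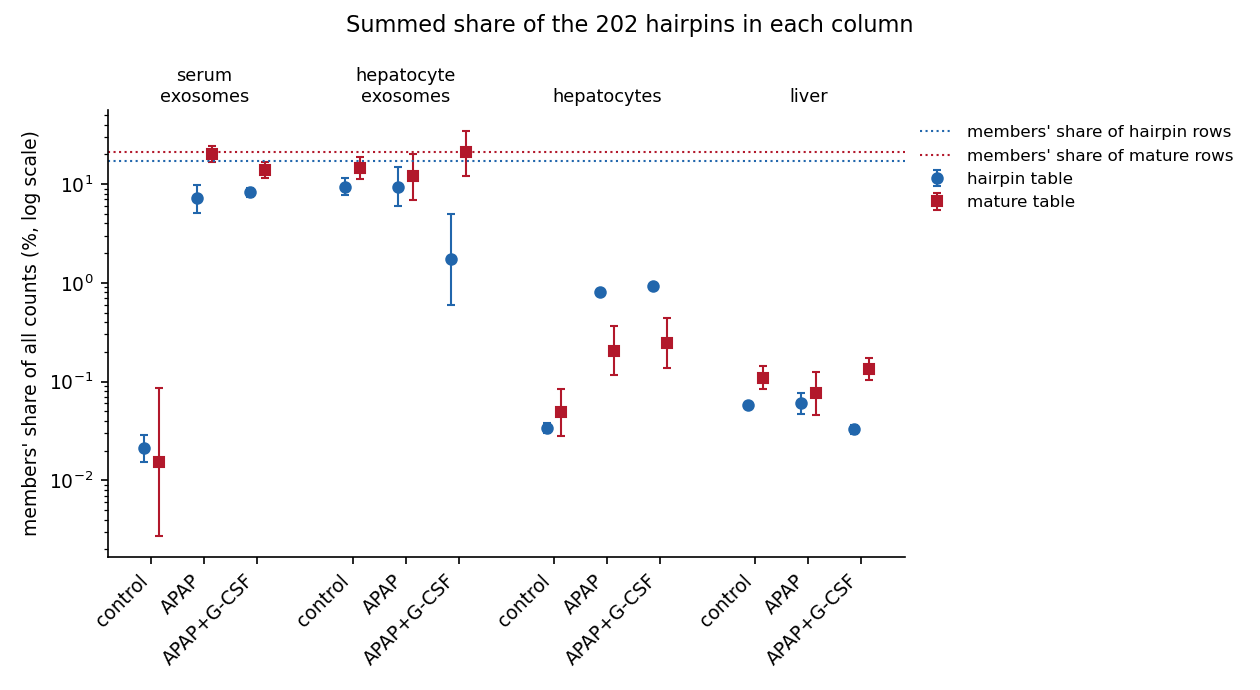
Summed share of all counts (%, log axis) of the 202 hairpins in each of the 12 columns, in the hairpin table (circles) and for the same numbers in the mature table (squares), with 95% Wilson intervals. Dotted lines mark their share of the rows, 17.03% and 21.04%, which the 5 shallow exosome columns approach; the other 7 columns stay under 1%.

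The number of hairpins above 0 was 63, 70 and 47 in hepatocytes, 130, 39 and 101 in liver, 22, 31 and 143 in serum exosomes, and 67, 13 and 4 in hepatocyte exosomes. The higher share in drug-treated hepatocytes was therefore carried by few hairpins: mir-6949 alone made up 75.4% and 85.8% of it. Without mir-6949 the hepatocyte shares were 0.02523%, 0.2019% and 0.134%, so both drug columns stayed above the control. In liver no hairpin held more than 16.4% of the summed count. In the serum column of acetaminophen plus G-CSF, 143 hairpins shared 334.2 counts at a mean of 2.34 each, and the highest, mir-6981, had 18.5. Those 143 were 70.79% of the mirtron-type hairpins, and 63.62% of all other hairpins were also above 0 in that column. In every other column a smaller part of the mirtron-type hairpins than of the others was above 0. In hepatocytes these parts were 31.19%, 34.65% and 23.27%, against 59.96%, 54.07% and 49.49% of the others.

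mir-6949 was a hairpin of the hepatocyte cultures. It had 74, 1104.33 and 1116 counts in hepatocytes, or 0.00882%, 0.614% and 0.801% of the column. In liver it had 3, 2 and 14 counts, or 0.000229%, 0.0018% and 0.00128%. All 3 hepatocyte shares lay above all 3 liver shares. Among hairpins with counts in a hepatocyte column it ranked 152 of 653 in the control, 33 of 602 with acetaminophen and 24 of 534 with acetaminophen plus G-CSF. Serum exosomes held 0, 0 and 1 counts, and hepatocyte exosomes none in any column. A count of 0 in the control exosome column allows a share of up to 0.329%, and 0 in the other 2 allows up to 1.79% and 1.73%. Those limits exceed the shares in the hepatocytes, so mir-6949 was not detectable in hepatocyte exosomes at this depth.

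mir-7058 had 2, 62.5 and 45 counts in hepatocytes, or 0.000238%, 0.0348% and 0.0323% of the column. Liver held 4, 1 and 5 counts, serum exosomes 0, 3 and 4.33, and hepatocyte exosomes 4, 0 and 0. The hepatocyte control, at 0.000238%, lay below all 3 liver columns (0.000306%, 0.000898% and 0.000456%), and both treated hepatocyte columns lay above them. In the 2 treated serum columns and the control column of hepatocyte exosomes its shares, 0.652%, 0.108% and 0.439%, stood on 3 to 4.33 counts each.

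mir-6937 had 9, 58 and 45 counts in hepatocytes and 30, 0 and 7 in liver. It was high in both treated hepatocyte columns and, among liver columns, had the most counts in the control. In the acetaminophen liver column 0 counts allow a share of up to 0.0027%, above the 0.00229% of the liver control. Serum exosomes held 6, 0 and 2 counts, and the 6 made it the leading hairpin of the serum control, ahead of mir-6976 with 4 and mir-6967 with 3. Hepatocyte exosomes held none.

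**Figure D3:**
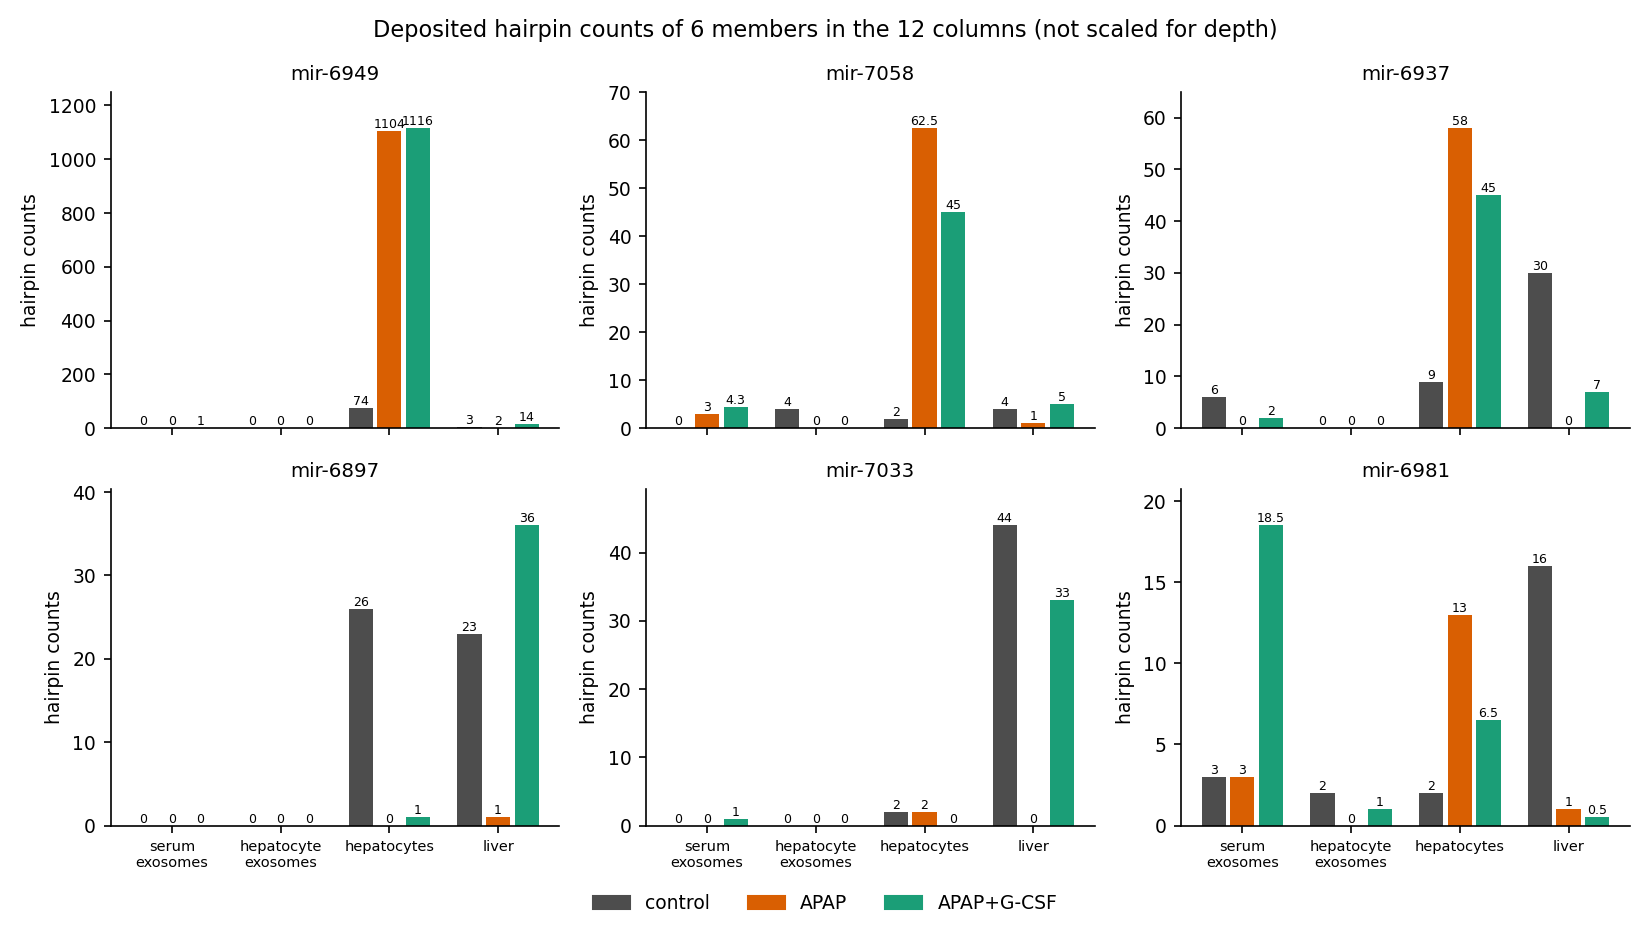
Deposited hairpin counts (vertical axes from 0, each panel with its own scale) of 6 hairpins in the 12 columns, by material and treatment (grey control, orange acetaminophen or APAP, green acetaminophen plus G-CSF), not scaled for the unequal depth of the columns. mir-6949, mir-7058 and mir-6937 are highest in the 2 treated hepatocyte columns, and mir-7033 in the liver control.

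Hepatocytes were compared with liver in edgeR's quasi-likelihood test over the 6 columns of both materials, with treatment as a covariate, on hairpins with at least 10 counts in at least 2 columns. Of the 202 hairpins, 11 passed that filter, among 372 tested in all. At a Benjamini-Hochberg adjusted p of 0.05, higher calls made up 2.42% and lower calls 5.65% of all 372, and 2 of the 11 were higher and none lower. Over all hairpins 9 of 30 calls were higher, against 9 of 87 with column totals and 16 of 39 with DESeq2 size factors within edgeR, and mir-6949 and mir-7058 were higher under all 3 scalings. mir-7058 had passed the filter through both treated hepatocyte columns alone, where it is high, and mir-6949 through the 3 hepatocyte columns and 1 liver column, so that count is no evidence about the set and the test of mir-7058 is no independent one. mir-6949 was higher in hepatocytes by 8.55 on the log2 scale (SE 1.27, adjusted p = 0.000153, edgeR). mir-7058 was higher by 4.76 (SE 1.5, adjusted p = 0.049, edgeR). The call of mir-6949 was lost without the hepatocyte acetaminophen column (adjusted p = 0.167, edgeR) and without the liver column of acetaminophen plus G-CSF (adjusted p = 0.0815). That of mir-7058 was lost without either drug-treated liver column (adjusted p = 0.398 and 0.511, edgeR), with no filter on low counts (0.13) and in a fit over all 12 columns (0.168), and without either drug-treated hepatocyte column it had too few counts to be tested. mir-6937 was 4.64 higher on the log2 scale and did not pass (SE 1.7, adjusted p = 0.0795, edgeR), although it did with DESeq2 size factors within edgeR (adjusted p = 0.0389), in DESeq2 (0.000256), and in edgeR without the hepatocyte control (0.000273) or the liver control (3.57e-05).

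The other 8 tested hairpins did not pass. mir-6897 had a log2 difference of 0, with 26, 0 and 1 counts in hepatocytes and 23, 1 and 36 in liver. Counts this uneven within a material do not show that its level was equal in both. mir-7033 had 2, 2 and 0 counts in hepatocytes and 44, 0 and 33 in liver, a log2 difference of -1.59 with an SE of 1.64. Both were near 0 in the acetaminophen liver column, the shallowest of the 6, where 0 counts allow a share of up to 0.0027%. mir-6988, in an intron of Syvn1, the ubiquitin ligase of endoplasmic reticulum quality control, had 3.6, 0 and 0.6 counts in hepatocytes and 17, 0.2 and 20.9 in liver.

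Mcpt8 and Lat are genes of blood cells, and marker microRNAs of other cell types were summed in the same columns. The leukocyte list of mir-223, mir-142 and mir-150 had a share of 0.00882%, 0.017% and 0.0154% in hepatocytes and 0.227%, 0.837% and 0.627% in liver, and all of its hairpins but 1 had counts in the hepatocyte control. The erythroid list of mir-451a, mir-144 and mir-486 held 0.00107%, 0.00529% and 0.00215% of hepatocyte counts and 0.166% to 5.26% of liver counts. The endothelial mir-126a was at 0.261%, 0.981% and 0.69% in hepatocytes and at 1.43% to 2.3% in liver, and the mesenchymal list at 0.0129%, 0.116% and 0.0518% in hepatocytes. The sums of these 4 lists were higher in both drug-treated hepatocyte columns than in the control, by unlike amounts. The leukocyte sum went from 0.00882% to 0.017% and 0.0154%, and mir-6949 from 0.00882% to 0.614% and 0.801%. The hepatocyte list of mir-122, mir-192 and mir-194, at 10.5%, 14.8% and 7.53%, was above its control only with acetaminophen alone. Among the hairpins of the 4 lists, mir-142 was lower with acetaminophen plus G-CSF (0.00359% against 0.00453% in the control). mir-486 was lower with acetaminophen (0.0% against 0.000119%), and the others were higher in both. The erythroid sums stood on 9.0, 9.5 and 3.0 counts. The part of these lists in the differences of mir-6949 and mir-7058 was not tested. In bulk samples fewer cells of a type and less RNA per cell cannot be told apart.

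Acetaminophen was compared with control over hepatocytes and liver together, each material giving 1 pair of columns. None of the 11 hairpins passed, while edgeR called 0.269% of the 372 hairpins higher and 0.0% lower. mir-6949 was the only one of the 11 with an unadjusted p under 0.05, and it was 4.29 higher on the log2 scale (SE 1.44, adjusted p = 0.194, edgeR). With column totals in place of TMM factors (trimmed mean of M values, edgeR's scaling) its adjusted p was 0.031 in edgeR, and the DESeq2 Wald test, which called 1 of the 11, gave 0.00255. mir-7058 was 3.56 higher (SE 1.82, adjusted p = 0.43, edgeR). Without the liver control column only the control column of hepatocytes is left, so no call is taken from that fit. mir-7058 had passed the filter through both treated hepatocyte columns alone, where it is high, so its test is no independent one.

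Within hepatocytes alone, where 2 columns allow no test of the treatment, the comparison used a rule of size. A hairpin was counted as different with at least 10 counts in either column, a ratio of TMM-scaled counts of at least 2, and an exact conditional 95% interval of that ratio that left out equality. The interval covers counting error only and compares 2 columns, not 2 treatments. Of 302 hairpins with enough counts, 30.1% were higher with acetaminophen and 32.1% lower. Of the 15 mirtron-type hairpins among them, 10 were higher and 1 was lower. No test compares 10 of 15 with the background, and a hairpin that reached 10 counts in the shallower acetaminophen column had to be high there.

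mir-7058 was 119-fold higher in that comparison (interval 31.4 to 998, 62.5 against 2 counts). mir-6949 was 56.9-fold higher (44.9 to 73.0), the narrowest interval of the 15. mir-7063, in an intron of the clathrin adaptor gene Ap2a2, was 49.6-fold higher (7.44 to 2110) on 13 counts against 1. The lower one was mir-6897, with 0 counts against 26. It was 2.27-fold lower against a floor of 3 counts for the 0, and at least 1.72-fold lower by its interval. With column totals in place of TMM factors it no longer met the rule, and 10 were higher and 0 lower.

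The other 7 higher hairpins, named here after their values were seen, had small counts. mir-6961 in Bin2 (24.5 against 0), mir-6957 in Grap2 (23 against 0) and mir-7014 in Ecm1 (19.5 against 0) were 31.1-fold, 29.2-fold and 24.8-fold higher against a floor of 3 counts, and at least 22.9-fold, 21.9-fold and 18.8-fold higher by their intervals. Bin2 and Grap2 are expressed mainly in blood cells, and Ecm1 codes for an extracellular matrix protein. mir-6981, mir-6937, mir-7003 and mir-6939 were higher by 24.8-fold, 24.6-fold, 22.1-fold and 16.2-fold. mir-7003 lies in Mybl2, a cell-cycle transcription factor gene, and mir-6939 in the kinase gene Akt1. Of the 4 that did not meet the rule, mir-6935 in Actg1 had 1 count against 18, mir-7009 in Anxa5 1 against 17, mir-7046 in Rabac1 0 against 12 and mir-7068 in Cherp 0 against 10. All 4 had more counts in the control, which was sequenced more deeply.

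**Figure D4:**
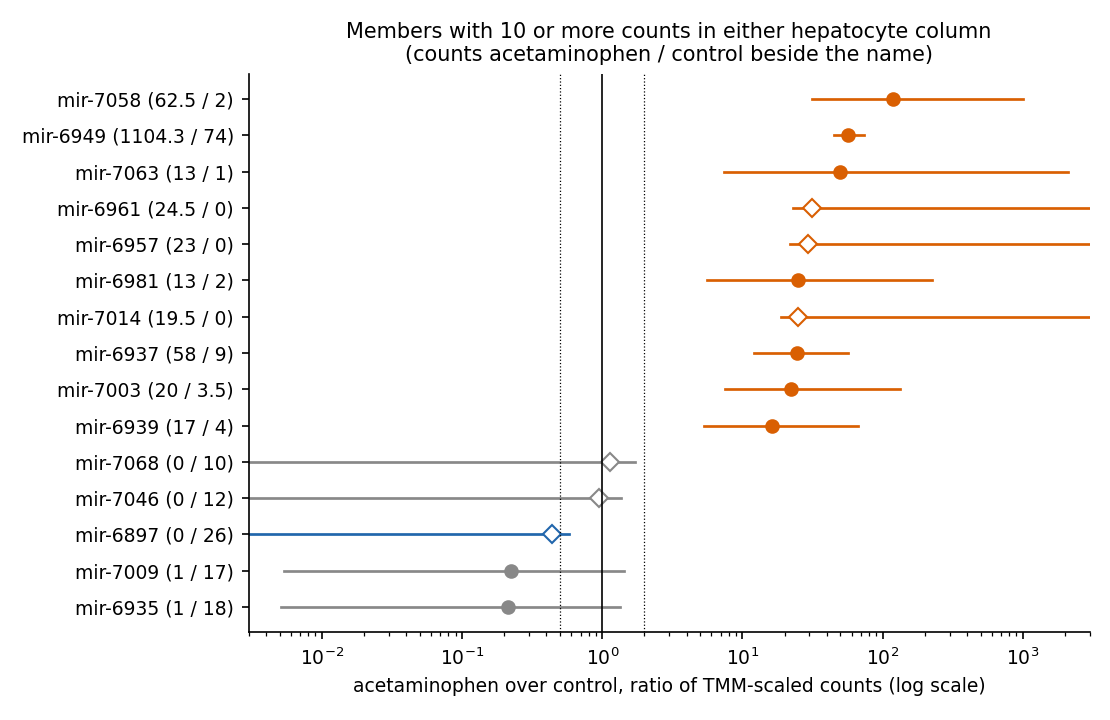
Ratio of TMM-scaled counts, acetaminophen over control, in hepatocytes (log axis) for the 15 hairpins with at least 10 counts in either column, with exact conditional 95% intervals; orange met the rule as higher, blue as lower, grey did not. Open diamonds take a floor of 3 counts for a 0, lines that reach an edge of the plot have no bound on that side, dotted lines mark 2-fold, and the counts stand beside each name.

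The same comparison was made in liver. Of 432 hairpins, 16.9% were higher with acetaminophen and 19.2% lower, and of 23 mirtron-type hairpins 1 was higher and none lower. A lower call was out of reach at this depth: mir-7033, the one with the most control counts, had 0 against 44, and its ratio against a floor of 3 counts was 0.715. The hairpin that was higher was mir-7054 in Scaf1, 38.4-fold higher (10.2 to 215) on 11 counts against 3. It had entered the comparison through the acetaminophen column alone, where it is high. mir-7011 in the semaphorin gene Sema4a (5 against 19 counts) and mir-6998 in Fubp3 (5 counts), the next in the acetaminophen column, did not meet the rule. mir-6949 and mir-7058 had too few counts in both columns to enter it.

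Whether the response to acetaminophen differed between hepatocytes and liver was tested with an interaction term in edgeR, chosen after the counts had been seen. Both drug columns of a material were set against its control. Of the 372 hairpins tested, 2.15% had a response higher in hepatocytes and 2.69% a lower one, and 1 of the 11 mirtron-type hairpins passed. Higher responses were 44.4% of all calls, and 59.1% with column totals, and mir-6937 was called under both. It was higher with drug in hepatocytes by 4.42 on the log2 scale, and in liver its difference was -2.07. These responses differed by 6.48 (adjusted p = 0.0208, edgeR). For mir-7058 they differed by 5.77 (adjusted p = 0.0869) and for mir-6949 by 3.34 (adjusted p = 0.305, edgeR), and neither passed. The call of mir-6937 was lost without either drug-treated hepatocyte column (adjusted p = 0.183 and 0.16, edgeR) and with no filter on low counts (adjusted p = 0.237).

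G-CSF added to acetaminophen gave no call. None of the 11 hairpins passed over hepatocytes and liver together, 0.0% of the 372 hairpins were called in either direction, and 0 of the 11 had an unadjusted p under 0.05 in edgeR or passed in DESeq2. The difference of mir-6949 was 0.16 on the log2 scale (SE 1.14) and that of mir-7058 was -0.33 (SE 1.33). In hepatocytes alone the ratio of mir-6949 was 1.43 (1.31 to 1.55) and that of mir-7058 1.02 (0.682 to 1.53), both under 2-fold.

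By the rule of size, of 230 hairpins in hepatocytes, 7.83% were higher with G-CSF and 14.3% lower, and 4 of 10 mirtron-type hairpins were lower and none higher. mir-7003 had 2 counts against 20 and was 7.08-fold lower (1.72 to 62.5). mir-6961 had 3 against 24.5 and was 5.79-fold lower (1.72 to 29.4). mir-6939 had 3 against 17 and was 4.01-fold lower (1.16 to 21.4). mir-7063, with 0 against 13, was 3.07-fold lower against a floor of 3 counts and at least 2.16-fold lower by its interval. All 4 were among the 10 that were higher with acetaminophen, and the acetaminophen column is shared by both comparisons. These 4 reached 10 counts in that column alone, where they are high, so 4 of 10 is no evidence about the set. In liver, of 379 hairpins, 17.4% were higher and 14.0% lower with G-CSF. Of 7 mirtron-type hairpins 1 was lower, mir-7054, with 3 counts against 11 (34.6-fold, 9.13 to 193), again in the column shared with the comparison above. mir-7054 entered through that column alone.

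Serum exosomes were compared with liver, and hepatocyte exosomes with hepatocytes, in an edgeR fit over all 12 columns with column totals as library sizes. In serum exosomes 10.1% of 387 hairpins were called higher than in liver and 14.0% lower, and 2 of the 11 mirtron-type hairpins tested were higher. Of all calls there 41.9% were higher, 30.2% with TMM factors and 77.3% with DESeq2 size factors. mir-6981 had 3, 3 and 18.5 counts in serum exosomes (0.00166%, 0.652% and 0.46%) and 16, 1 and 0.5 in liver (0.00122%, 0.000898% and 4.56e-05%). Its difference was 7.53 on the log2 scale (SE 2.24, adjusted p = 0.0319, edgeR). mir-7058 was 6.97 higher (SE 2.2, adjusted p = 0.0352, edgeR), although the serum control held none. It entered the test through hepatocyte columns, since no serum or liver column held more than 5 counts, and it lost the call with DESeq2 size factors within edgeR (adjusted p = 0.0769). In a fit of only the 6 serum and liver columns mir-6981 lost its call (adjusted p = 0.244, edgeR) and mir-7058 had too few counts to be tested. For both, the call was lost without either treated serum column, which lie among the shallow ones (adjusted p = 0.065 and 0.143 for mir-6981, 0.11 and 0.143 for mir-7058, edgeR). It was also lost without either drug-treated liver column or the control column of hepatocyte exosomes, for mir-6981 without either drug-treated hepatocyte column, and for mir-7058 without any column of hepatocyte exosomes (adjusted p = 0.0517 to 0.137, edgeR).

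In hepatocyte exosomes 13.2% of the 387 hairpins were called higher than in hepatocytes and 1.03% lower, and 2 of the 11 were higher. That direction depended on the scaling: higher calls made up 92.7% of all calls with column totals, 33.0% with TMM factors and 8.61% with DESeq2 size factors. With TMM factors mir-6948 was called higher and mir-6949 lower, and with DESeq2 size factors mir-6937 and mir-6949 were called lower and none higher. mir-6948 had 3, 0 and 1 counts in the exosomes and 5, 0 and 0 in the cells (log2 difference 9.72, SE 2.09, adjusted p = 0.00577, edgeR). mir-6981 had 2, 0 and 1 against 2, 13 and 6.5 (log2 difference 7.0, SE 2.26, adjusted p = 0.0415, edgeR). Single counts in columns of 911, 167 and 173 counts thus set these differences. Without the control exosome column both calls were lost (adjusted p = 0.353 and 0.559, edgeR). That of mir-6981 was also lost without the exosome column or the serum column of acetaminophen plus G-CSF and without any hepatocyte column (adjusted p = 0.0847 to 0.167, edgeR), and with DESeq2 size factors within edgeR the adjusted p was 0.0777 for mir-6948 and 0.743 for mir-6981. No fold is given for hairpins at 0 in all 3 exosome columns.

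Treatments within exosomes could hardly be compared. In serum exosomes mir-6981 was the only mirtron-type hairpin with 10 counts in either treated column, 18.5 against 3, a ratio of 0.673 (0.191 to 3.47) after scaling by column totals. Of all 63 hairpins with enough counts there, 4.76% were higher with G-CSF and 3.17% lower. The hairpins next in rank with acetaminophen plus G-CSF were mir-7082 with 8 counts, at an intron of Gm38431 and overlapping an exon of Raver1, and mir-6906 in Spock2 with 6. In hepatocyte exosomes the highest were mir-6946 in the vesicle coat gene Sec24c with 5 counts and mir-7021 in Prdm2 with 4 (control), and mir-6973b, at the donor end of a Gfra4 intron, with 3 (acetaminophen). With acetaminophen plus G-CSF 4 hairpins shared 3.0 counts.

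For the hairpin with the most counts, mir-6949, the mature table did not follow the hairpin table. mir-6949 had 0 counts for both of its arms, printed above, in all 12 columns. A count of 0 allows a share of the mature table of up to 0.0563% in the acetaminophen and 0.0674% in the acetaminophen plus G-CSF column of hepatocytes, where the hairpin itself made up 0.614% and 0.801% of the hairpin table. Over the 6 hepatocyte and liver columns these hairpins had 4231.1 hairpin and 163.0 mature counts, a ratio of 26.0 against 24.6 for the whole tables, and without mir-6949 the ratio was 11.8. Of the 15 numbers with at least 30 hairpin counts there, 6 had no mature count: mir-6949, mir-6981, mir-6948, mir-6957, mir-6976 and mir-6935. At the ratio of the whole tables, the 31 to 39 hairpin counts of all but mir-6949 would go with fewer than 2 mature counts each, so their 0 says little. mir-6897 had 24.0 mature counts for 87.0 hairpin counts, and mir-7033 had 25.0 for 81.0.

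Only 5 of the 403 mature rows reached 10 counts in any column. miR-7058-3p had 17.5 and 3 counts in the 2 treated serum columns, 4 in control hepatocyte exosomes and 9 in hepatocytes with acetaminophen. miR-6981-5p had 0, 10 and 9.5 counts in serum exosomes and 4, 3 and 1 in hepatocyte exosomes, and none in any hepatocyte or liver column. miR-7033-5p was a liver row, with 5, 5 and 14 counts, as was miR-6897-5p with 8, 0 and 11. In the acetaminophen liver column miR-7033-5p thus had 5 counts where its hairpin had 0. miR-6958-3p, from an intron of Dennd6b, had 2, 1 and 11 in liver. Summed over the columns, 5p arms had 213.0 counts and 3p arms 206.5, so neither arm prevailed in the sum. Single columns leaned either way. Serum with acetaminophen had 32.5 counts of 5p and 56.0 of 3p arms, and liver with acetaminophen plus G-CSF 35.0 and 24.0.

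In the 5 shallow exosome columns these numbers had 471.88 hairpin and 255.5 mature counts together, a ratio of 1.85 against 3.58 for the whole tables. The ratio was thus below that of the whole tables, as it was in hepatocytes and liver without mir-6949. In serum with acetaminophen the mature counts exceeded the hairpin counts, 88.5 against 33.42, and 36 of the 48 numbers with a mature count had no hairpin count in that column. The mature share was 20.3% and 14.02% in the treated serum columns, and 14.63%, 12.09% and 21.28% in hepatocyte exosomes. In hepatocytes it was 0.04861%, 0.2064% and 0.2472%, on 13, 11 and 11 counts, of which miR-7058-3p gave 0, 9 and 3. The higher mature share with acetaminophen alone thus rested on that row. The higher share with acetaminophen plus G-CSF did not, since 8.0 of its 11 counts were of 5p arms.

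**Figure D5:**
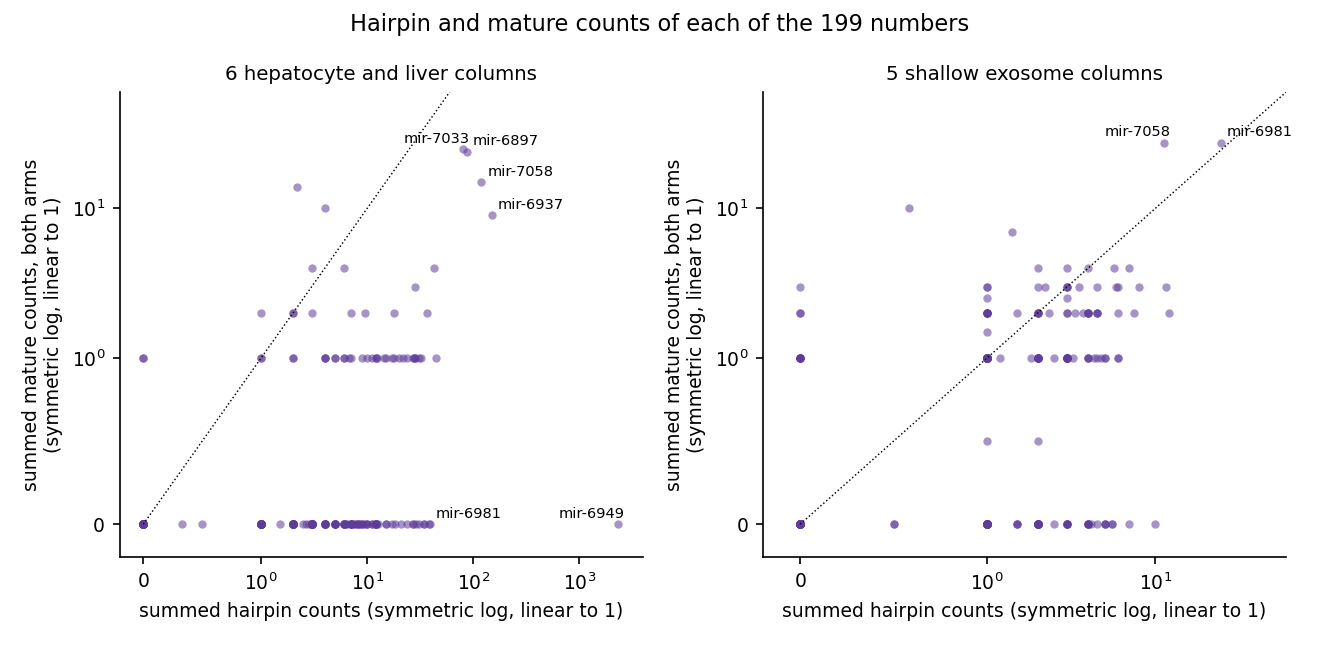
Summed hairpin counts (horizontal) and summed mature counts of both arms (vertical) of each of the 199 numbers, on symmetric log axes that are linear below 1, in the 6 hepatocyte and liver columns (left) and the 5 exosome columns with 167 to 4026 hairpin counts (right); the dotted line marks equality. On the left mir-6949 stands at 2313.33 hairpin and 0 mature counts, and on the right mir-7058 and mir-6981 lie near or above equality.

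Among all hairpins with at least 10 counts in at least 2 columns (383), those whose shares over the 12 columns ranked most like mir-6949 were mir-878 (Spearman's rho 0.923), mir-1961 (0.915) and mir-7003 (0.902). For mir-7058 they were mir-5124a (0.972), mir-346 (0.91) and mir-3060 (0.889). These are descriptions over 12 columns that differ widely in depth. mir-878 had shares of 0.0181%, 0.377% and 0.141% in hepatocytes and 0.0205%, 0.00719% and 0.0073% in liver.

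Mirtrons described before this number range gave values in the same columns for comparison. mir-1224, a mirtron outside the range, had 14, 660 and 709.5 counts in hepatocytes and 1, 38.5 and 86 in liver, and so stood highest in the same 2 hepatocyte columns as mir-6949. mir-877 went the other way, with 149, 19.5 and 12 counts in hepatocytes (0.0178%, 0.0108% and 0.00861%) and 200, 6.5 and 94.5 in liver. mir-702 had at most 9 counts in any column.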

How the data were processed

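The deposited values are estimated counts, not scaled to depth, and the authors had combined the PGM and Proton libraries of a condition into 1 column, per the file headers. Per the labels' protocols, a Norgen kit yielded the total RNA, and an Ion Total RNA-Seq kit the small RNA libraries. No aligner, annotation release, genome build or rule for reads matching several entries is named in the sources used here. Of the values above 0 of these hairpins, 84.93% were whole within 0.001. Counts were rounded for edgeR 4.0.16 (quasi-likelihood test) and DESeq2 1.42.0 (alternative). Both were fitted on the whole hairpin table with Benjamini-Hochberg adjustment over all hairpins tested. An SE is the absolute log2 difference divided by the square root of the test's F value. The steps were tested on simulated data with a set spread between columns or with counting error alone. That check does not give the error rate of the calls here. TMM factors scaled hepatocytes and liver, and column totals scaled exosomes. Sequences come from RefSeq (GRCm38.p6) and gene models from GENCODE M21, matched by microRNA name and coordinates. The hairpins, comparisons and marker lists were chosen with earlier results of these data known. Named were mir-6949 and mir-7058, the 3 hairpins with the most counts in each column (at least 3 counts), up to 5 called per direction in each test and 3 per direction in each comparison of 2 columns, and the 3 most alike hairpins of the first pair.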

Additional observations from a re-analysis of the deposited data

Results flagged for a closer look

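The response of mir-6937 to acetaminophen differed between hepatocytes and liver by 6.48 on the log2 scale (adjusted p = 0.0208, edgeR interaction term), with 9, 58 and 45 counts in hepatocytes and 30, 0 and 7 in liver (control, acetaminophen, acetaminophen plus G-CSF). Each material had 1 control column, so both controls decide this value and neither could be left out. mir-6937 had passed the filter through both treated hepatocyte columns and the liver control alone. Those columns raise the difference, so its test is no independent one. In the acetaminophen liver column 0 counts allow a share of up to 0.0027%, above the 0.00229% of the liver control. Over 8 alternatives the difference lay between 5.78 and 10.82 with adjusted p between 0.000295 and 0.237, and 5 of the 8 kept the call.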

How the results depend on the processing

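For hepatocytes against liver, 1 hairpin was called with no filter on low counts and 1 in a fit over all 12 columns, both higher. For acetaminophen against control 1 was called with column totals and 1 with DESeq2. For serum exosomes against liver 1 was called with DESeq2 size factors within edgeR, 7 of 198 with no filter, 0 of 5 in only the 6 columns of both materials and 1 of 1 mature row. For hepatocyte exosomes against hepatocytes 14 of 198 were called with no filter, 1 with DESeq2 and 2 with DESeq2 size factors within edgeR (all lower, against 2 higher with column totals), 0 of 3 in only the 6 columns and 1 of 1 mature row. The difference of response gave 2 calls with DESeq2 and 0 with no filter. Leaving out 1 column at a time gave 0 to 4 calls for hepatocytes against liver, 0 to 3 for acetaminophen, 0 throughout for G-CSF, 0 to 6 for serum exosomes against liver, 0 to 3 for hepatocyte exosomes against hepatocytes and 0 to 3 for the difference of response. The cause of these shifts was not tested, except that the smaller fits test fewer hairpins. The share of all hairpins called is not given here for these fits. Their counts therefore compare settings and say nothing about the mirtron-type hairpins as a set. With the treated serum columns exchanged, 1 hairpin was higher with acetaminophen than in control serum, where 0 had enough counts before.

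In the mature table the summed shares were 20.3% and 14.02% in the treated serum columns, 14.63% and 21.28% in hepatocyte exosomes of the control and of acetaminophen plus G-CSF, 0.04861%, 0.2064% and 0.2472% in hepatocytes, and 0.1095% and 0.135% in liver of the control and of acetaminophen plus G-CSF. Without the leading hairpin of a column the shares were 0.01788%, 6.651% and 7.879% in serum exosomes, 8.914%, 7.606% and 1.163% in hepatocyte exosomes, 0.02523%, 0.2019% and 0.134% in hepatocytes, and 0.0543%, 0.05037% and 0.02942% in liver. At a limit of 1 count, 2 in place of 4 hairpins were detected in hepatocyte exosomes with acetaminophen plus G-CSF. Of 264 alternative values, 161 kept their side of the threshold or their size, and both changes of direction are those of hepatocyte exosomes. Another scaling moved the median log2 difference of all hairpins by -0.81 to 0.43 in the fits of hepatocytes and liver, and by -0.56 to -1.84 in the fit of all 12 columns. Depth limits every exosome value but those of control serum: 1 count is 0.0248% to 0.598% of those columns. No paired analysis was possible because the replicate numbers mark only the instrument, whose libraries share 1 column; treatment or material entered the fits as a covariate.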
